A study of Arabidopsis thaliana with 8 samples.

Results

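The comparison set shoots that had lost LHP1, BPC4 and BPC6 together against wild type shoots. It used the 2 arrays titled lhp1-4 bpc4 bpc6, here called the triple mutant, and the 2 arrays titled wildtype, or 4 of the 8 arrays of the series. All arrays were chosen by title alone. Every probe set except the AFFX control was read, and 30 of undecided level, described below, were left out of the main tests. All 8 arrays came from untreated Arabidopsis thaliana, accession Columbia, and none of the groups differed in ecotype (Col-0), tissue (shoot) or age (18 days). The remaining genotypes, lhp1-4 with the single lesion and bpc4 bpc6 with the pair of lesions, had 2 arrays each. Each array held RNA pooled from 6 greenhouse plants kept at 20 °C under 18 h of daily light and 35% humidity. The labels give an allele number for lhp1 alone. Whether replicates were grown separately is not given, so p-values measure the spread between these pools. In pooled shoots a change in the amount of a cell type and a change of RNA per cell cannot be told apart.

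LHP1 is a chromodomain protein that reads the repressive histone mark left by Polycomb group complexes, and genes under this mark are typically held at low levels in the leaf. Plants without LHP1 are known for early flowering and small, curled leaves, and flowering regulators and floral organ identity genes are among the known targets of Polycomb silencing in the shoot. BPC4 and BPC6 belong to the plant BASIC PENTACYSTEINE family, whose members bind GAGA repeats in DNA. The series title states that BPC6 brings LHP1 to such repeats.

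No source used here pairs probe sets with genes, so each is called by its identifier on the array. The mutated genes, the tissue label and any pathway or cell type could therefore not be checked or named from the array. The deposited table appears to hold each intensity of at least 1000 divided by 1000, as inferred from the values, and these were restored before use. A deposited value of 3 to 10 can then be dim or bright, and a level is called settled where the other values of the probe set decide it. Median intensities, with open values as deposited, were 54.7 and 54.8 on the wild type arrays and 58.1 and 56.5 on the triple mutant arrays. The median absolute log2 difference per probe set was 0.15 between the wild type replicates, 0.14 between the triple mutant replicates and 0.22 to 0.29 between a triple mutant and a wild type array. Differences of over 2-fold were found in 1.21% of probe sets between the wild type replicates, in 0.889% between the triple mutant replicates and in 7.66 to 8.47% between arrays of the 2 genotypes. The brightest 177 probe sets of settled level, about 1% of them, held 26.9% and 26.1% of the summed intensity in wild type and 25.9% and 26.1% in the triple mutant.

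A large share of the array differed between the triple mutant and wild type, with more strong rises than strong falls. At a Benjamini-Hochberg adjusted p under 0.05 in limma, 5328 of 22716 probe sets were called (23.5%), of which 2606 rose (11.5%) and 2722 fell (12%). Rises were the larger changes, while the numbers of rises and falls were close. The median log2 change was 0.83 among the rises and -0.64 among the falls. Small changes leaned downward, with 664 rises and 1108 falls of under 1.5-fold. Changes of at least 2-fold leaned upward, with 1006 rises (4.43%) and 443 falls (1.95%), and the rises made up 69.4% of them. At 4-fold or more there were 292 rises and 67 falls, at 8-fold 87 and 16, at 16-fold 24 and 4, and at 32-fold 6 and 2.

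The median change per probe set was slightly downward, by an amount that varied with the scaling, although the triple mutant arrays had the higher median intensities. The median log2 change over all probe sets was -0.09, and 14522 probe sets were lower and 8194 higher in the triple mutant. Both triple mutant arrays lay below both wild type arrays in 43.0% of all probe sets and above them in 22.5%. All 2606 rises and all 2722 falls were free of overlap between the 2 genotypes. Once every array was centred by its own median the overall shift grew to -0.16 and the calls became 2327 rises and 3503 falls, so rises went from 48.9% to 39.9% of the calls. Under quantile normalization the shift shrank to -0.04 and rises were 46.3%, and without wild type replicate 1 the shift was -0.05. Rises were 43.6% without wild type replicate 2 and 51.3% without triple mutant replicate 2. With array weights they were 51.1%. With the 2 genotypes alone in the model there were 1821 rises and 1548 falls, or 54.1% rises, so which direction had more calls depended on the setting. Among calls of at least 2-fold the rises stayed in the majority in all 21 alternatives, at 62.9 to 69.8%, lowest with centred arrays.

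**Figure D1:**
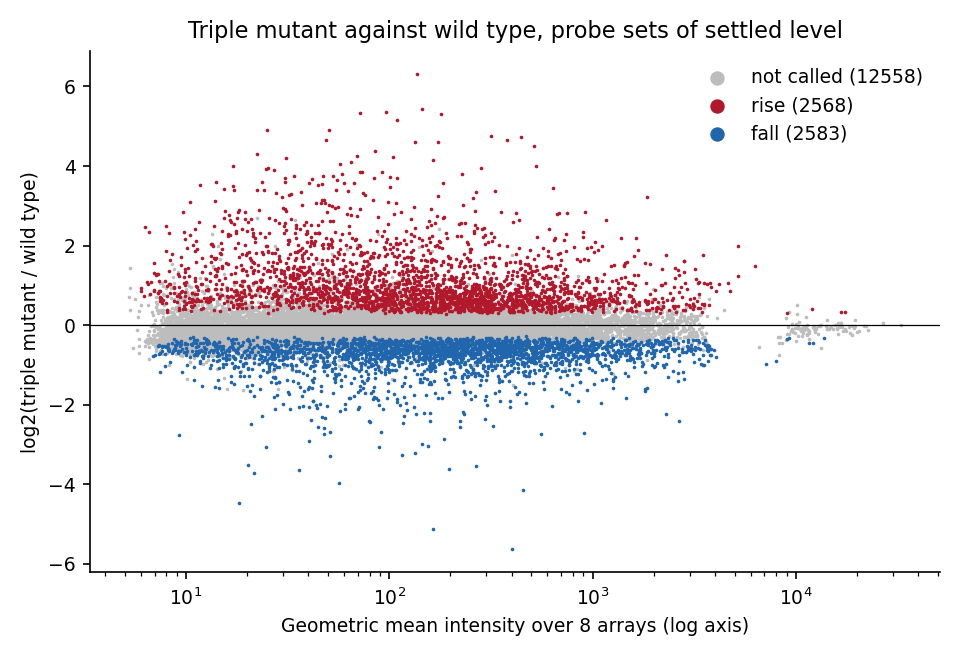
Each point is a probe set of settled level, placed by its geometric mean intensity over the 8 arrays (log axis) and its log2 change in the triple mutant against wild type. Red points are the 2568 rises, blue points the 2583 falls and grey points were not called; rises reach 6.30 and falls -5.62. The thinly filled stretch toward the bright end is where some of the probe sets with an open level, which are not drawn, could lie.

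Calls were more frequent among bright than among dim probe sets, and strong rises were most frequent at low to middle signal. Bands were set by the geometric mean over all 8 arrays in the 17709 probe sets of settled level, of which 29.1% were called. Below a mean of 20, 7.84% of 3305 probe sets rose and 6.23% fell. From 20 to 50 the shares were 14.4% and 11.9% of 2666. From 300 to 1000 they were 17.9% and 22.5% of 3022, and at 1000 and over 16.2% and 22.1% of 1293. Falls outnumbered rises in the 2 brightest bands. Rises outnumbered falls in the 4 dimmer ones, but with each array centred on its median falls led in all 6 bands, as with 327 falls and 243 rises below 20. The differences between bands were not tested. Calls of at least 2-fold had another pattern, with more rises than falls in every band, also with centred arrays, where the lead was 48 to 46 at 1000 and over. Their share was highest from 20 to 50, where 231 probe sets (8.66%) rose and 91 (3.41%) fell by that much, and at 1000 and over it was 60 (4.64%) and 34 (2.63%). Below 20 there were 128 such rises (3.87%) and 26 such falls (0.787%). Rises had a median size of 1.21 in log2 from 20 to 50 and 0.67 at 1000 and over, while falls had medians of -0.74 and -0.61. Standard errors in log2 had a median that went from 0.17 to 0.11 between the same bands.

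A further 5007 probe sets had all their values between 3 and 10 as deposited. They were either very dim or between 3000 and 10000, and their fold changes are the same under both readings. Only 38 of them rose and 139 fell, or 3.54% in all, with 1 rise and 1 fall of at least 2-fold. Their absence makes the lowest and the highest band incomplete. For scale, settled levels on both wild type arrays were at 1000 to 3000 in 971 probe sets and at 10000 or more in 76. Both numbers are far below 5007. How the 5007 divide between the 2 readings was not tested.

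**Figure D2:**
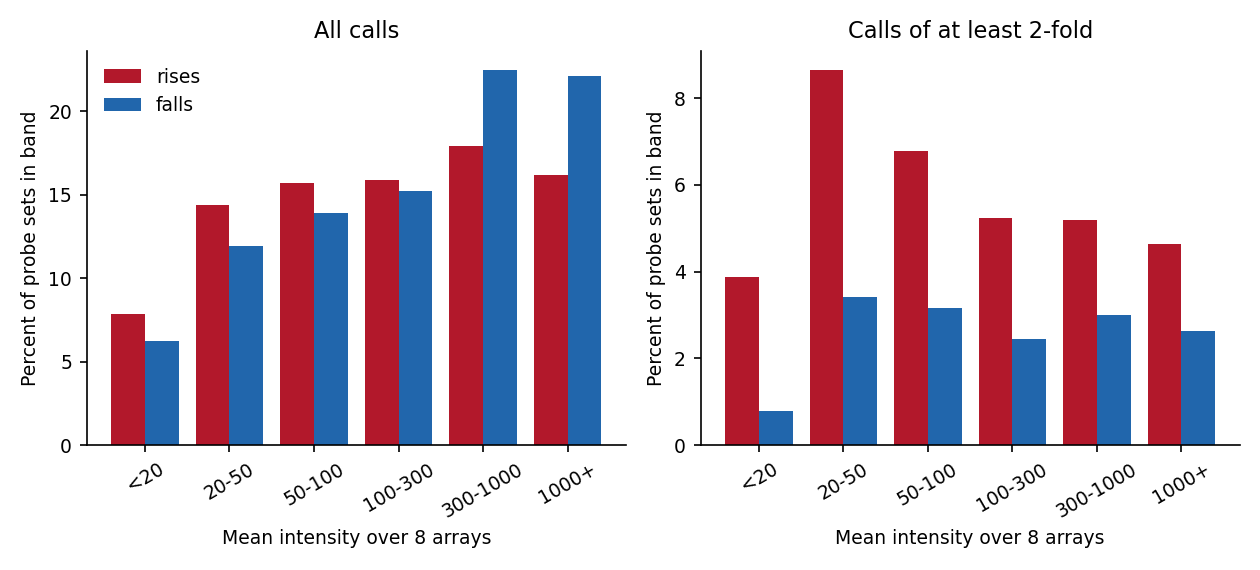
Bars give the percent of probe sets of settled level that rose (red) or fell (blue) in the triple mutant, by band of geometric mean intensity over the 8 arrays. Left, all calls, where falls lead in the 2 bands from 300 upward (22.5% and 22.1%) and, once arrays are centred, in all 6; right, calls of at least 2-fold, where rises lead in every band and peak at 8.66% from 20 to 50.

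Some probe sets went from dim to bright. Dim was taken as under 20 on both arrays of a genotype and bright as at least 100 on both, among probe sets of settled level. Of the 3024 that were dim in wild type, 31 were bright in the triple mutant. Of the 8735 that were bright in wild type, 5 were dim in the triple mutant. Open and undecided probe sets are not counted. In 9 undecided ones wild type was at 3 to 10 and both triple mutant values were at least 100 as deposited. All 31 and all 5 were called, which choosing them by the same values made nearly certain. The 31 had a median intensity of 13.4 in wild type, 15.4 in bpc4 bpc6, 84.5 in lhp1-4 and 163 in the triple mutant. In lhp1-4 both arrays were bright for 9 of them and both dim for 1, whereas in bpc4 bpc6 both were dim for 20 and bright for 0. Their median log2 difference in the triple mutant was 3.76 from wild type, 3.55 from bpc4 bpc6 and 1.21 from lhp1-4. The 5 that went dark stood at a median of 128 in wild type, 87.7 in bpc4 bpc6, 26.0 in lhp1-4 and 11.7 in the triple mutant.

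Among the probe sets tested, which leave out the 30 undecided ones described below, 246687_AT had the largest measured rise. Its intensity was 10.5 and 18.1 on the wild type arrays, near the 10th percentiles of 13.1 and 11.6 over settled levels, and 1038 and 1138 on the triple mutant arrays. It was 702 and 762.5 in lhp1-4 and 26.6 and 38.8 in bpc4 bpc6. Its groups did not overlap between the triple mutant and any other genotype, and the lhp1-4 arrays lay much closer to the triple mutant than to wild type. The log2 change from wild type reached 6.30 with a standard error of 0.27 over 2 arrays in each genotype, and its adjusted p in limma was 6.76e-05. No detection call was used here, so folds and ranks that start or end at such dim signals are as measured, with no bound set by a background level. The log2 difference from lhp1-4 was 0.57 ± 0.27 with an adjusted p of 0.341 in limma.

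The next rise was that of 245275_AT. It stood at 16.1 and 16.8 in wild type, 86.3 and 34.5 in bpc4 bpc6, 803.5 and 584 in lhp1-4 and 981 and 506 in the triple mutant. The triple mutant arrays enclosed those of lhp1-4. The change from wild type was 5.42 ± 0.46 (limma adjusted p = 0.000586) and the difference from lhp1-4 was 0.04 ± 0.46 (limma adjusted p = 0.996).

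The deepest fall among the probe sets tested, in 258419_AT, started from a bright signal of 1463 and 2767 in wild type and 2843 and 2573 in bpc4 bpc6. It fell to 58.0 and 28.9 in the triple mutant, with 89.3 and 145.7 in lhp1-4, which is -5.62 ± 0.42 from wild type in log2 (limma adjusted p = 0.000375). The triple mutant arrays lay below the lhp1-4 arrays, though that difference of -1.48 ± 0.42 did not pass (limma adjusted p = 0.117). Probe set 255298_AT fell in steps. It stood at 717 and 574 in wild type, 795 and 816.5 in bpc4 bpc6, 71.4 and 78.9 in lhp1-4 and 20.5 and 16.5 in the triple mutant. The triple mutant was below wild type at -5.12 ± 0.15 in log2 (limma adjusted p = 2.59e-05) and below lhp1-4 at -2.03 ± 0.15 (limma adjusted p = 0.00289). Without restoring the scale the sign of 246687_AT would turn to -3.66 and that of 258419_AT to 4.35.

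**Figure D3:**
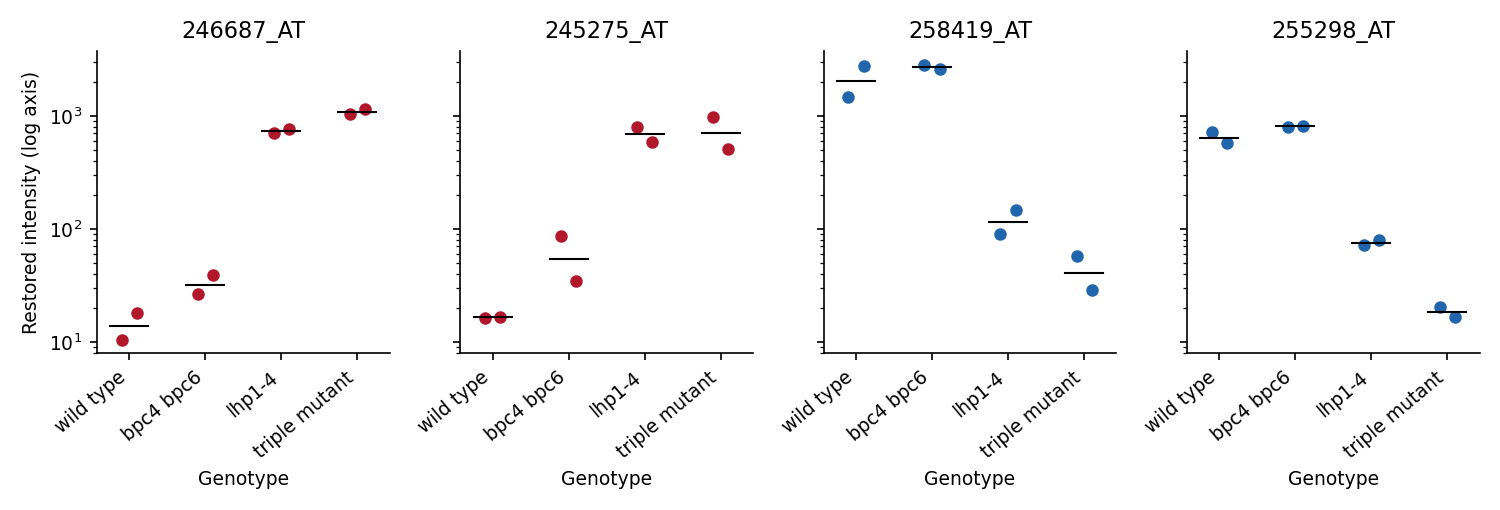
Restored intensity (log axis) of the 2 probe sets with the largest rise (red) and the 2 with the largest fall (blue) in the triple mutant, by genotype; points are single arrays and lines geometric means. In each panel wild type and bpc4 bpc6 lie on one side and lhp1-4 and the triple mutant on the other; 246687_AT runs from 13.8 in wild type to 1087 in the triple mutant and 255298_AT from 641 to 18.4.

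The 12 largest rises ran from 4.64 to 6.30 and the 12 largest falls from -3.25 to -5.62 on the log2 scale. The 12 rises had a median intensity of 16.3 in wild type, from 5.95 to 112, against 28.0 in bpc4 bpc6, 434 in lhp1-4 and 774 in the triple mutant. The 12 falls had medians of 296, 177, 55.3 and 17.7 in the same order, with wild type levels from 77.3 to 2010.

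The restored scale left 30 probe sets undecided, and these held further large differences that entered none of the counts above. In 18 of them both wild type values as deposited lay between 3 and 10, from 4.45 to 9.78, while both triple mutant values were 10 or more, from 28.6 to 707. Read as dim wild type signals, these 18 had log2 changes from 2.55 to 7.03, with a median of 3.8. Read as values divided by 1000, they had changes from -2.94 to -7.42. All 18 thus differed by at least 4-fold under both readings, but in opposite directions. In 17 of the 18 both bpc4 bpc6 values also lay between 3 and 10, and in 15 both lhp1-4 values were 10 or more. The one with the highest change under the dim reading was deposited at 5.04 and 5.36 in wild type, 6.42 and 4.64 in bpc4 bpc6, 201 and 167 in lhp1-4 and 649 and 707 in the triple mutant. In 6 other undecided probe sets the triple mutant values lay between 3 and 10, from 3.13 to 8.62, and the wild type values were 10 or more. Their log2 changes were -1.66 to -6.99 under the dim reading and 2.97 to 8.31 under the other. Both lhp1-4 values were 10 or more in 2 of these 6 and between 3 and 10 in 2. The 2 highest under the other reading, at 7.07 and 8.31, had at least 1 lhp1-4 value under 3. The first was deposited at 29.22 and 66 in wild type and 1.847 and 1.88 in lhp1-4. The second was at 19.33 and 11.9 in wild type and 973.9 and 1.131 in lhp1-4. The rule multiplies values under 3 by 1000, so lhp1-4 was bright in both, as the triple mutant is only under the other reading. The last 6 had mixed forms.

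Neighbouring wild type levels gave a frequency of such changes as read by the restoration rule. The rule settles a value of 3 to 10 by nearness to other values of the probe set, so it can miss very large changes. Of 2852 probe sets at 10 to 30 on both wild type arrays, 94 were at least 4-fold and 38 at least 8-fold higher in the triple mutant. Of 971 at 1000 to 3000, 4 were at least 4-fold and 1 at least 8-fold lower, and of 76 at 10000 or more 0 were at least 4-fold lower. Under the dim reading 7 of the 18 would reach the twelfth largest rise and 2 would pass the largest, while 4 of the 6 would reach the twelfth deepest fall and 3 would pass the deepest. Under the other reading 10 of the 18 would pass the deepest fall and 2 of the 6 the largest rise. Of the last 6, with mixed forms, 1 would pass the largest rise under this reading, at 7.24. It was deposited at 18.03 and 16.34 in wild type, 1.731 and 1.722 in lhp1-4, and 2.08 and 3.234 in the triple mutant. The rule multiplies values under 3, so the dim reading scales only 1 of its 2 triple mutant arrays. Under the dim reading 1 mixed probe set would reach the 12th largest rise and 1 the 12th deepest fall. Both lists of largest changes thus depend on how these probe sets are read. With the 30 included, limma called 5358 probe sets under the dim reading and 5349 under the other. Both fits left a triple mutant value of 10.802 in 1 mixed probe set unscaled, although the rule multiplies such values with 3 decimals. Its log2 changes of -4.38 under the dim reading and 0.6 under the other rest on that unscaled value. It is the mixed probe set counted at the 12th deepest fall, so that place and its part in both counts are not reliable.

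**Figure D4:**
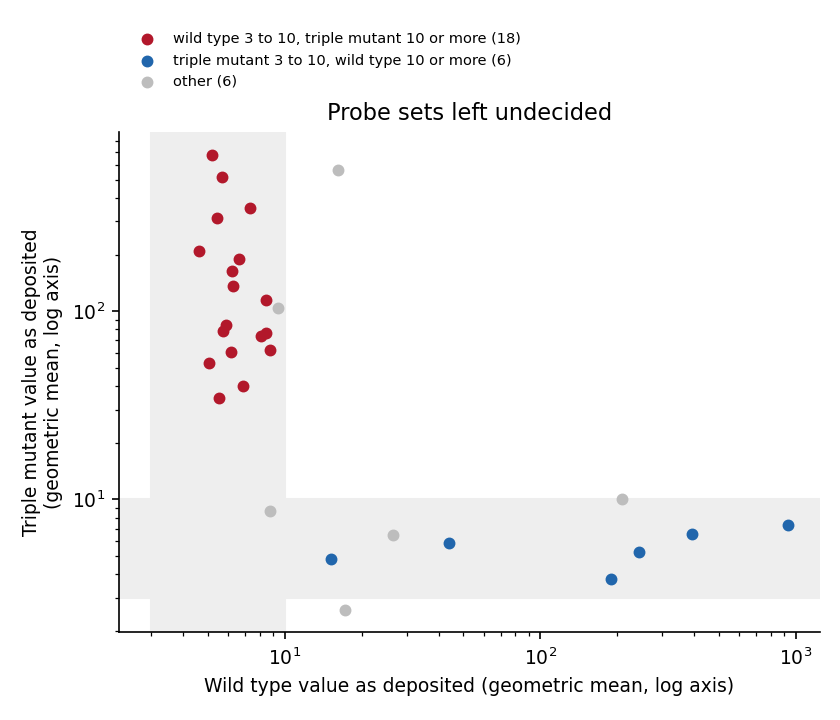
The 30 undecided probe sets, by the geometric mean of their values as deposited in wild type and in the triple mutant (log axes); shaded bands mark the range from 3 to 10 in which a value can be dim or divided by 1000. The 18 red points are at 3 to 10 in wild type and at 34.7 to 677 in the triple mutant, the 6 blue points are at 3 to 10 in the triple mutant, and the 6 grey points have mixed forms.

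The median level of the changed probe sets differed by genotype. The comparisons below share the wild type or the triple mutant arrays, and the probe sets were chosen by the triple mutant and wild type values, so the levels are a description. The 1005 rises of at least 2-fold with a settled level had medians of 49.7 and 48.3 on the wild type arrays, 67.6 and 57.1 on the bpc4 bpc6 arrays, 112 and 106 on the lhp1-4 arrays and 188 and 181 on the triple mutant arrays. Their median log2 change from wild type was 1.52 in the triple mutant, 0.86 in lhp1-4 and 0.20 in bpc4 bpc6. The 442 falls of at least 2-fold had medians of 207 and 210 in wild type, 180 and 184 in bpc4 bpc6, 96.9 and 105 in lhp1-4 and 63.3 and 68.3 in the triple mutant. Their median log2 changes were -1.30, -0.80 and -0.22 in the same order of mutants. In both sets the medians of bpc4 bpc6 lay near wild type and those of lhp1-4 between wild type and the triple mutant.

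**Figure D5:**
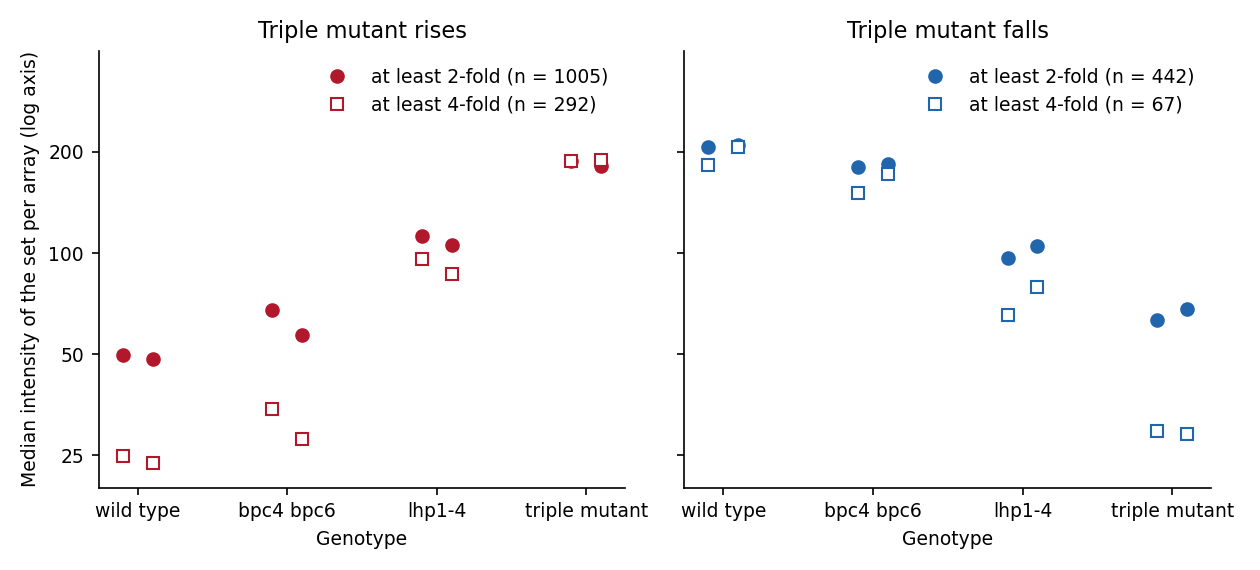
Median intensity per array (log axis) of the probe sets that rose (left) or fell (right) in the triple mutant by at least 2-fold (filled circles) or 4-fold (open squares), each genotype with its 2 arrays. The medians of the 2-fold rises go from 49.7 and 48.3 in wild type to 188 and 181 in the triple mutant, with lhp1-4 at 112 and 106.

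The triple mutant was nearer to lhp1-4 than to bpc4 bpc6. In limma 496 probe sets rose above lhp1-4 (2.18%) and 257 fell below it (1.13%), against 2380 that rose above bpc4 bpc6 (10.5%) and 2483 that fell below it (10.9%). The difference between these counts was not tested. The 1005 rises of at least 2-fold over wild type had a median log2 difference of 0.71 from lhp1-4 and 1.37 from bpc4 bpc6, where all probe sets had -0.0095 and -0.051. The 442 falls had medians of -0.56 and -1.11. The triple mutant arrays enter each of these differences, so they are not independent of the choice of probe sets. The counts against lhp1-4 are the least firm, since they dropped from 753 in all to 34 without lhp1-4 replicate 2 and 97 without lhp1-4 replicate 1. Without triple mutant replicates 1 and 2 they were 196 and 219. Against bpc4 bpc6 the calls dropped from 4863 to 2845 without bpc4 bpc6 replicate 2.

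Among the tested probe sets that were called, the 2 largest rises over lhp1-4 had triple mutant arrays far above those of each other genotype. Probe set 262373_AT was at 14.3 and 10.6 in wild type, 12.01 and 13.9 in bpc4 bpc6, 13.2 and 13.5 in lhp1-4, and 188 and 195 in the triple mutant. The triple mutant arrays stood apart from the other 6, at 3.84 ± 0.15 over lhp1-4 in log2 (limma adjusted p = 0.00057). Probe set 253161_AT was at 56.3 and 72.7 in wild type, 41.0 and 23.6 in bpc4 bpc6, 134 and 83.8 in lhp1-4, and 1766 and 1354 in the triple mutant, 3.87 ± 0.33 over lhp1-4 (limma adjusted p = 0.00478).

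Among the tested probe sets that were called, the largest falls from lhp1-4 took a pair of different forms. Probe set 260471_AT was at 16.4 and 15.6 in wild type, 12.1 and 9.34 in bpc4 bpc6, 275 and 241 in lhp1-4, and 40.6 and 32.2 in the triple mutant. Its level was highest on the lhp1-4 arrays. The triple mutant stood at -2.83 ± 0.17 from lhp1-4 in log2 (limma adjusted p = 0.00177) and 1.18 ± 0.17 above wild type (limma adjusted p = 0.00342). The second, 252607_AT, was at 895 and 1335 in wild type, 1294 and 2233 in bpc4 bpc6, 320 and 450 in lhp1-4 and 59.4 and 64.2 in the triple mutant. The triple mutant lay below all other arrays, a difference from lhp1-4 of -2.62 ± 0.31 (limma adjusted p = 0.0107).

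The share of calls differed by probe set design. Of the 21656 probe sets with a plain AT ending 23.8% were called. Of the 934 with an S_AT ending, which on this type of array marks probes shared by several transcripts, 79 rose and 78 fell (16.8%). Of the 126 with an X_AT ending, which marks probes that may cross-hybridise, 1 rose and 7 fell (6.35%). The difference between these classes was not tested, and signals of the S_AT and X_AT classes can come from more than 1 gene.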

How the data were processed

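The authors deposited linear intensity values, 1 for each probe set and array. RMA is named in the submitters' processing notes, without a version or a probe set definition. The deposited values ran from 1.0 to 999.7. From them, and from no label, it was inferred that each intensity reaching 1000 had been stored divided by that number. Values under 3 were multiplied by 1000, and so were those of 10 to 100 that carry 3 decimals. Others of 10 to 100 were multiplied if that put them within 5-fold of such a value. A value of 3 to 10 was settled where one reading lay within 5-fold of a settled value of that probe set and the other at least 20-fold away from all of them. Values were scaled in 1763 probe sets, 5007 had an open level, and 30 undecided ones were left out with 1 control.

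Differences were tested in limma 3.58.1 (R 4.3.3) on log2 of the restored intensities, with a group-means model over all 8 arrays (4 residual degrees of freedom, 2.85 added by moderation), and p-values were adjusted over 22716 probe sets within each of 3 contrasts. Means are geometric. The fit was tested on simulated data. The restoration rule was tested only on rescaled values of probe sets it had already settled, which cannot show whether those readings were right. Precision is limited by having 2 arrays in a genotype, with a median standard error of 0.13. Alternatives covered the arrays and probe sets in the model, scaling, weights, the prior, a replicate block and leaving out each array.

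The rule for naming took the largest calls without overlap and with a settled level. It asked for probe sets matched to 1 gene. The sources used here pair none, so the gene lists and marker lists that had been drawn up were not used and 2 probe sets are named each way for the contrasts with wild type and lhp1-4; those against lhp1-4 were chosen after their values were seen. The comparison and the lists were chosen with earlier results of these data known. No batch or scan label is given for the arrays.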

Additional observations from a re-analysis of the deposited data

How the results depend on the processing

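Each of the 21 alternatives kept the sign of the 4 probe sets named by their change from wild type wherever they were tested, except the values as deposited, which gave -3.66 for 246687_AT and 4.35 for 258419_AT. The 5328 calls against wild type ranged from 3822 to 5390 when 1 array was left out, and 2643 of them (49.6%) kept their sign and call in all 4 fits without a wild type or triple mutant array, among them 819 of the 1006 rises and 392 of the 443 falls of at least 2-fold. With only the 2 genotypes compared in the model the calls were 3369 against wild type (1821 rises and 1548 falls) and 386 against lhp1-4. Calls against lhp1-4 ranged from 34 to 701 and those against bpc4 bpc6 from 2845 to 5021 when 1 array was left out; fewer arrays also mean fewer degrees of freedom. Leaving out dim probe sets, which tests 8855 of them, gave 470 rises and 243 falls of at least 2-fold. Added after seeing the data were the fits on settled levels alone, on probe sets with no scaled or open value, with undecided probe sets, and those that left out an lhp1-4 or bpc4 bpc6 array for a comparison in which that genotype takes no part. The labels number replicates 1 and 2 in each genotype. Deviations of same-numbered arrays correlated from -0.184 to 0.231 over 6 pairs of genotypes, so the numbers were not taken as pairs. With the replicate block the calls were 5544 against wild type, 788 against lhp1-4 and 5006 against bpc4 bpc6.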
